A study of Mus musculus with 12 samples.

Results

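Open chromatin was compared between 2 glial populations of the wild-type (WT) mouse forebrain, microglia and nuclei positive for the oligodendrocyte-lineage factor OLIG2. ATAC-seq, which uses the Tn5 transposase to tag DNA that is not packed away, had been run on C57BL/6 mice at 4 months of age. Microglia were sorted as living (DAPI-negative) CD11b+, CD45 low, CX3CR1+ cells after mechanical dissociation. Olig2+ nuclei were sorted as PU.1-, OLIG2+, NEUN- nuclei from tissue homogenized in 0.1% formaldehyde. Each sort had 2 WT libraries, so n = 2 per group, and the labels give no animal number, sex or batch, so that the tests measure the spread between these libraries, which may be technical. The series holds 12 libraries, with SgshKO mice (which lack the lysosomal enzyme gene Sgsh) and NeuN+ nuclei beside these 4. The way the cells were prepared differed between the sorts throughout, so cell type and preparation cannot be told apart in any comparison here.

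The members are the 91770 peaks of the microglia table and the 82577 peaks of the Olig2+ table, 174347 of the 281974 peaks in the 3 tables of the series. Peaks of the tables were paired where each covered at least 50% of the other and neither had a second such partner. This gave 22710 shared peaks. No Olig2+ peak overlapped 64452 microglia peaks, and no microglia peak overlapped 55512 Olig2+ peaks. The remaining 4608 microglia and 4355 Olig2+ peaks overlapped in another way. Each table had been built from WT and SgshKO libraries together, and a library was counted only over the peaks of its own sort. A peak missing from a table therefore has no value there, and its absence is not a measurement of closed chromatin.

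Microglia are the resident macrophages of the brain. Their identity depends on the ETS-family factor PU.1, acting with IRF, RUNX, C/EBP and MEF2 factors, mostly at enhancers far from start sites. Oligodendrocytes make myelin, and their program is driven by OLIG, SOX and MYRF factors. Promoters rich in CpG dinucleotides are open in most cell types, whereas enhancers and CpG-poor promoters tend to be open in few.

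Library totals were 11571268 and 11804222 tags in WT microglia and 19279923 and 19555924 in WT Olig2+ nuclei. The median peak held 34 to 38 reads per microglia library and 30 reads in either Olig2+ library. Peaks took 55.8% and 48.7% of the microglia tags and 31.8% of the tags of both Olig2+ libraries. Values below are normalized tags per peak, scaled by the authors to a library total of 10000000. Pearson's r between log2 values of the 2 replicates, across peaks, was 0.95 for microglia and 0.96 for Olig2+ nuclei.

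The gates were checked first on the genes they select for, which are no finding. Start-site peaks (within 1000 bp of a start site) of Itgam, Ptprc and Cx3cr1, which encode CD11b, CD45 and CX3CR1, and of Spi1, which encodes PU.1, were found in the microglia table only. The Cx3cr1 peak held 271 and 241 tags. At Olig2 the start-site peak held 194.5 and 184 tags in Olig2+ nuclei, and an overlapping peak that was not paired held 25.9 and 31.3 in microglia. Neither table had a start-site peak of Rbfox3, which encodes NeuN. Over 15 endothelial and mural markers the summed start-site tags were 347 and 298 in microglia and 3.63 and 2.56 in Olig2+ nuclei, with start-site peaks of Flt1, Pecam1, Pdgfrb, Kdr and Kcnj8 and none of Cldn5, Cdh5 or Tek. Over 15 neuron markers they were 348 and 403 in microglia and 577 and 613 in Olig2+ nuclei. Over 15 astrocyte markers they were 407 and 376 against 125 and 122, with no start-site peak of Aqp4, Gfap or Sox9 in either table. Border macrophage markers summed to 52.7 and 40.7 tags and blood leukocyte markers to 32.8 and 42.4 in microglia. The Olig2+ table had no start-site peak of either list, and so no value. Each sum covers only peaks of the sort's own table, so the sums of the sorts rest on different peaks. The part of other cell types in the differences below was not tested.

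Promoters shared by the sorts and promoters open in one sort differed in sequence. RefSeq promoter windows (build GRCm38.p6, 32817 windows of 26994 genes) were read over the 250 bases before each start. Peaks of both tables overlapped 10268 windows, a microglia peak alone 2554, an Olig2+ peak alone 1771, and no peak of either 18224. The median number of CpG dinucleotides was 18 in windows open in both, 7 in microglia alone, 8 in Olig2+ alone and 3 in windows with no peak. Windows with a peak in 1 table thus lay between those with peaks in both and those with none.

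The motif GAGGAAG, a match to the site bound by PU.1 and related ETS factors, was searched on both strands. It was present in 18.6% of windows open in microglia alone, against 9.82% of those open in Olig2+ alone, 9.89% of those open in both and 10.6% of all windows. Among windows with 0 to 4 CpG the shares were 25.9% in microglia alone, 16.1% in both, 10.2% in Olig2+ alone and 9.54% in windows with no peak. In the same order they were 17.5%, 9.95%, 10.8% and 11.4% with 5 to 14 CpG. With 15 or more CpG they were closer, at 12.1%, 9.54%, 8.14% and 8.91%. The ETS motif GGAAGTG, which can overlap GAGGAAG, was present in 12.4% of windows open in microglia alone, 6.04% in Olig2+ alone, 12.1% in both and 8.55% of all. With 0 to 4 CpG it was in 19.0% of windows open in microglia alone and 9.09% of those open in both. With 15 or more CpG the order turned, with 6.06% in microglia alone and 12.2% in both. The SOX motif ACAAAG was present in 14.2% of windows open in microglia alone, 17.3% in Olig2+ alone and 16.5% of all, so the Olig2+ share was close to the share over all windows. Matches of letters describe the windows and are not binding sites.

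The following windows, each overlapped by a start-site peak described further on, show these letters in place, with matches to any of the 3 motifs just named, on either strand, in capitals. They were chosen after their peaks were seen, 3 from peaks of the microglia table only, 1 from a shared peak much higher in microglia, and 3 from peaks of the Olig2+ table only. All are from RefSeq, 5′ to 3′ along the gene, and end just before the start.
Rassf5 (chr1:131200186-131200435, minus strand): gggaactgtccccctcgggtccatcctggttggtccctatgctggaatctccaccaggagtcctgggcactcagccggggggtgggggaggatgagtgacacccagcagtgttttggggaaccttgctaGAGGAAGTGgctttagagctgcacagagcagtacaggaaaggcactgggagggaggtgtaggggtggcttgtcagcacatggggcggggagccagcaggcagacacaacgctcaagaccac
Gna15 (chr10:81524226-81524475, minus strand): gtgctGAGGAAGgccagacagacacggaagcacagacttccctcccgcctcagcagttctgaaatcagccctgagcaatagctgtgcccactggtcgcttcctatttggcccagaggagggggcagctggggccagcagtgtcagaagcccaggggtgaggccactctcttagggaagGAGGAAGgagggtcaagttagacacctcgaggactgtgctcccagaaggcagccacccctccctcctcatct
C1qb (chr4:136886201-136886450, minus strand): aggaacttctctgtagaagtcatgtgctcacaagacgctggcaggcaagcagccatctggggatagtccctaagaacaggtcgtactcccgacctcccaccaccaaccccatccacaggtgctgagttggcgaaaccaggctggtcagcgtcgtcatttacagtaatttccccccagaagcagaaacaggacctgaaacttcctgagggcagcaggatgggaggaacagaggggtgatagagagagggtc
Batf3 (chr1:191098164-191098413, plus strand): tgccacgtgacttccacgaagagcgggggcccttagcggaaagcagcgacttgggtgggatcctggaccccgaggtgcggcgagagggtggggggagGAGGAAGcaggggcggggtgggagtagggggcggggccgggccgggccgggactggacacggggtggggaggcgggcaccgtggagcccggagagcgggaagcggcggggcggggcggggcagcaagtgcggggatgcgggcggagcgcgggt
Tmeff2 (chr1:50927273-50927522, plus strand): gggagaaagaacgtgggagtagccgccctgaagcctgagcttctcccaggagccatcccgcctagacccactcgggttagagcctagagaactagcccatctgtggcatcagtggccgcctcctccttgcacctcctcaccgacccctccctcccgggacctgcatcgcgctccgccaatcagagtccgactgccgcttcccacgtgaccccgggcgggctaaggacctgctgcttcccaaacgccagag
Gal3st1 (chr11:3983386-3983635, plus strand): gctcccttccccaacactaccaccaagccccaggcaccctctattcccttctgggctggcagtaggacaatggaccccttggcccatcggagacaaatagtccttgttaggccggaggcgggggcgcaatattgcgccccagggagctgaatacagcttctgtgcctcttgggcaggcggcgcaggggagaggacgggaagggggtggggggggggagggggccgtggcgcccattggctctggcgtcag
Ppp2r2cos (chr5:36876880-36877129, minus strand): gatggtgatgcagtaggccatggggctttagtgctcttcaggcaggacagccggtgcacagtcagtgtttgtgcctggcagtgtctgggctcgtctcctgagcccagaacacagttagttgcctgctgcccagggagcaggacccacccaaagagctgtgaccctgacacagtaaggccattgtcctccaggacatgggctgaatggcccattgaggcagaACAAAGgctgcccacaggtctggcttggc

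In Rassf5 both ETS motifs coincide, and Gna15 holds GAGGAAG at 2 places. C1qb holds none of the 3 motifs in this window, although its peak was among the 6 strongest of the microglia-only start-site peaks. Batf3 holds 1 GAGGAAG within a window of 27 CpG. Tmeff2 and Gal3st1 hold none of them, and Ppp2r2cos holds 1 ACAAAG.

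Start-site peaks were mostly common to both sorts and distal peaks mostly were not. Of 23806 microglia start-site peaks 52.3% were shared and 38.7% overlapped no Olig2+ peak. Of 67964 distal microglia peaks 15.1% were shared and 81.3% overlapped none. Among Olig2+ peaks 61.9% of 20120 start-site peaks and 16.4% of 62457 distal peaks were shared, and 28.4% and 79.7% overlapped none. Of the shared peaks 44.1% were annotated as promoter, against 7.60% of microglia-only and 6.25% of Olig2+-only peaks. Introns held 51.4% of microglia-only and 55.6% of Olig2+-only peaks, and intergenic sequence held 32.9% and 27.6%. A start-site peak in both tables was found for 10463 genes, in microglia only for 2666 and in Olig2+ nuclei only for 1506.

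The separation held at every level of signal. Among distal microglia peaks the share overlapping any Olig2+ peak was 10.8% in the lowest of 10 equal bins by WT tags and 25.2% in the highest. Among start-site microglia peaks it was 31.5% and 86.9%. For Olig2+ peaks the shares were 9.85% and 30.0% distal, and 34.7% and 96.4% at start sites. Even the strongest distal peaks of either sort were therefore mostly without a counterpart. A peak of the NeuN+ table, from neuronal nuclei of the same series, overlapped 80.5% of shared peaks, 14.3% of microglia-only peaks and 23.8% of Olig2+-only peaks.

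**Figure D1:**
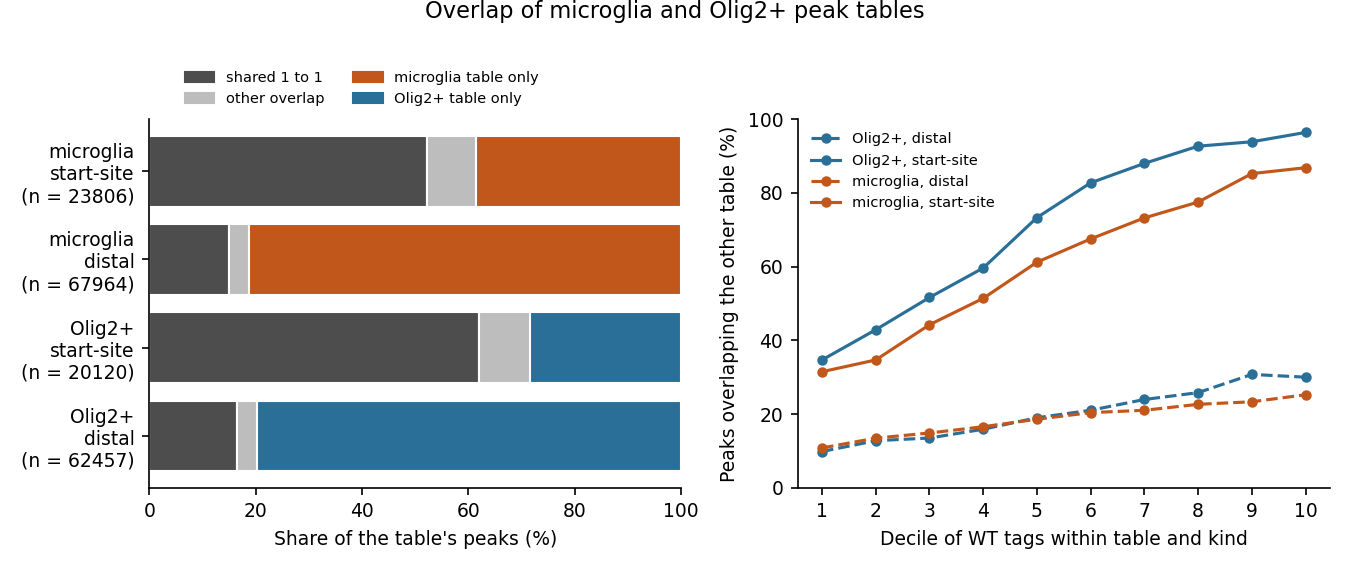
Left, share of start-site and distal peaks of each table that were shared 1 to 1, overlapped otherwise, or overlapped no peak of the other table (bars sum to 100%). Right, share of peaks overlapping the other table by decile of WT tags within each table and kind; start-site lines climb to 86.9% (microglia) and 96.4% (Olig2+), distal lines stay at or below 30.8%.

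The 6 strongest microglia-only start-site peaks lay at Sh3tc1, Sirpa, Gm21057, C1qb, Gna15 and Rassf5. Sh3tc1 had 1476 and 1255 tags (chr5:35729069-35729377), and Sirpa, the receptor for the "don't eat me" signal CD47, had 1039 and 923 at a peak in its intron 1 (chr2:129595990-129596196). C1qb, a subunit of the complement initiator C1q, had 841 and 808 tags (chr4:136886109-136886480). Gna15, a G-protein subunit of blood-lineage cells, had 811 and 755. Rassf5, a Ras and Rap effector in leukocyte adhesion, had 782 and 667. The predicted gene Gm21057 had 946 and 824.

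The strongest distal microglia-only peaks were of the same height. They lay in intron 3 of Ppard (nearest gene Fance, 1099 and 990 tags), intron 1 of Zfp710 (nearest Gm21057, 1065 and 982) and intron 3 of Cotl1 (1053 and 976). The others lay in intron 4 of Arhgap22 (nearest Mapk8, 1083 and 915) and intron 1 of Ski (1045 and 896). One more, nearest Chmp6 (1063 and 901), was annotated to an intron of a transcript listed under the symbol Mir5098. Cotl1 encodes an actin-binding protein, and Ski a repressor of TGF-beta signalling. By nearest gene, microglia-only peaks were most numerous at Runx1, a factor of the blood lineages, with 91 against 3 Olig2+-only peaks. Sipa1l2 (87 against 24), Frmd4a (75 against 19), Pag1 (74 against 4), Rreb1 (72 against 1), Zfhx3 (71 against 4), Elmo1 (70 against 50), Pmepa1 (66 against 3), Fam49b (64 against 26) and Ski (63 against 8) followed.

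Of the 6 strongest Olig2+-only start-site peaks 3 lay at genes of the myelin list, Cnp, Mbp and Gal3st1. Cnp, an enzyme of the myelin cytoplasm, had 656 and 677 tags (chr11:100575603-100575824). Mbp, myelin basic protein, had 532 and 543 at its downstream promoter (chr18:82554226-82554538). Gal3st1, which makes the myelin lipid sulfatide, had 529 and 495. Gpr37, a receptor of oligodendrocytes, had 532 and 485, Tmeff2 had 539 and 570.2, and the antisense gene Ppp2r2cos had 505 and 474.

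Distal Olig2+-only peaks were led by intron 1 of Kcnj10, which encodes the glial potassium channel Kir4.1, with 906 and 844 tags. The next lay in intron 2 of Ttyh1 (nearest 9430041J12Rik, 828 and 789.5), intron 2 of Clasrp (822 and 780.3), intron 3 of Amotl2 (777 and 795), between genes near Mir7052 (736 and 726) and in intron 4 of Zfp276 (nearest Vps9d1, 670.1 and 679). By nearest gene, Olig2+-only peaks were most numerous at A230009B12Rik (129 against 12 microglia-only), A330074K22Rik (121 against 8), Gse1 (115 against 22), Rnf220 (115 against 7), 4833428L15Rik (112 against 0), Mbp (106 against 9), Kazn (103 against 2), Nfasc (98 against 0), Gm10532 (95 against 16) and Mapt (95 against 3). Nfasc encodes neurofascin, whose glial form anchors the myelin loops beside the node, and Mapt encodes tau.

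Some genes carried many peaks of both kinds at different places. Tns3 had 55 microglia-only and 55 Olig2+-only peaks with 11 shared. Elmo1 had 70 and 50, Zmiz1 42 and 41, Chd7 51 and 38, Tmcc3 35 and 52, and Irf2bp2 34 and 40. In all, 1013 genes had at least 5 of each.

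Among the 22710 shared peaks, 16132 (71.0%) differed between the sorts in limma at a Benjamini-Hochberg adjusted p under 0.05. Of these 10914 (48.1% of shared peaks) were higher in microglia and 5218 (23%) in Olig2+ nuclei. The libraries of the sorts did not overlap at 84.9% of shared peaks. A difference of at least 4-fold was called at 3103 peaks in microglia and 717 in Olig2+ nuclei, and of at least 16-fold at 319 and 36. All log2 differences here are microglia minus Olig2+, on log2(tags + 1), which understates those of low peaks.

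The split between directions moved with the scaling. The median log2 difference was 0.47 with the deposited scaling to library totals, −0.22 when libraries were scaled to tags in all peaks of their table and −0.00 with the median of ratios. With the in-peak scaling 6652 peaks were called higher in microglia and 9519 in Olig2+ nuclei. Under the deposited scaling and 5 others together, 6373 peaks (28.1%) were called higher in microglia every time and 5216 (23%) higher in Olig2+ nuclei. Directions given below for single genes held under all 6 scalings unless stated.

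Distal shared peaks leaned more to microglia than start-site shared peaks. The median difference was 0.74 at 10256 distal peaks and 0.22 at 12454 start-site peaks, with 69.3% and 72.5% called, 54.6% and 42.7% higher in microglia and 14.7% and 29.8% in Olig2+ nuclei. The gap between start-site and distal medians was −0.51 and lay between −0.89 and −0.28 under the other settings. It was absent among the weakest peaks (0.02 in the lowest decile of mean tags) and −1.45 in the ninth. Shared peaks that no NeuN+ peak overlapped had a median of 0.90, against 0.36 for those that one did.

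**Figure D2:**
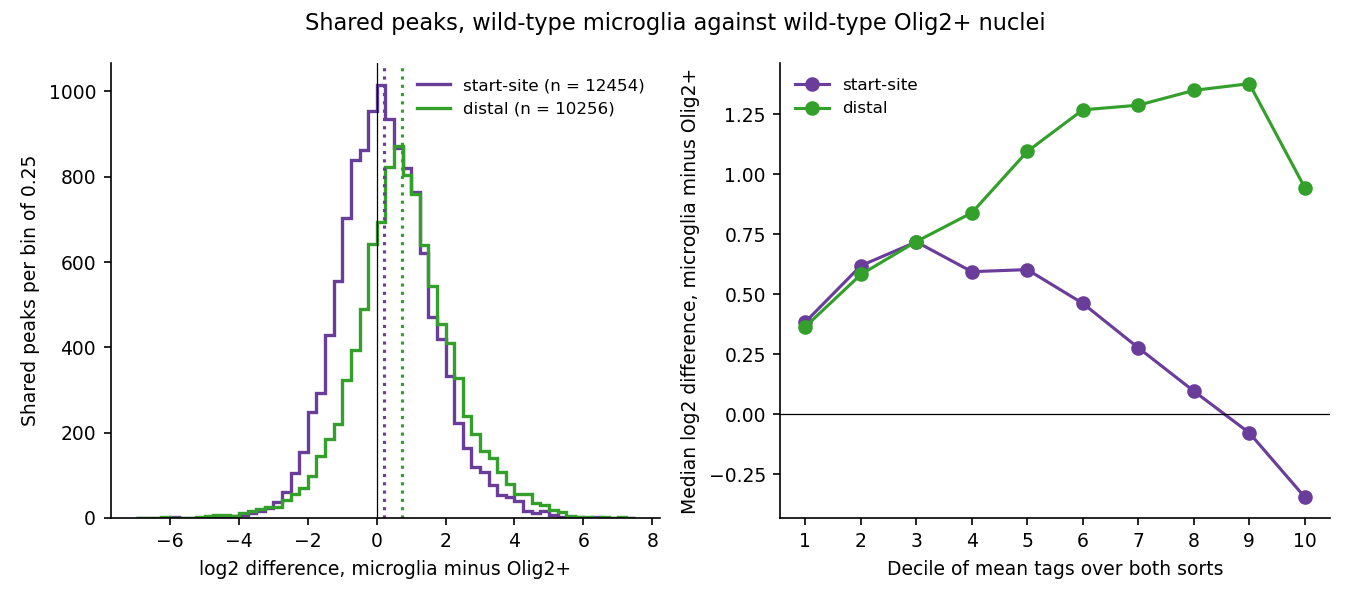
Left, number of shared start-site and distal peaks by log2 difference (microglia minus Olig2+, bins of 0.25; dotted lines are medians, 0.22 and 0.74). Right, median log2 difference by decile of mean tags; the lines run together in the lowest 3 deciles and part above them.

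The 6 largest differences at shared start sites in favour of microglia were at Batf3, Disc1, Trim47, Il6ra, Inpp4b and Fam212a. Batf3, a leucine-zipper factor of myeloid cells, had 171 and 184 tags in microglia and 1.04 and 1.02 in Olig2+ nuclei (2 reads in each Olig2+ library). Pooled reads per library total gave a ratio of 172 with an exact 95% interval of 66.8 to 636, which covers counting error only. That peak entered the Olig2+ table with SgshKO libraries in the merge, where it held 9.22 and 7.98 tags. At Il6ra, the interleukin-6 receptor, microglia had 408 and 393 tags and Olig2+ nuclei 7.26 and 4.09 (5.95 ± 0.23, SE, adjusted p = 5.6e-16). At Inpp4b, a phosphoinositide phosphatase, the values were 364 and 333 against 4.15 and 5.62 (5.90 ± 0.22). Disc1 (444 and 389 against 3.63 and 4.09; 6.42 ± 0.21), Trim47 (389.8 and 343 against 2.59 and 5.11; 6.29 ± 0.25) and Fam212a (591 and 582 against 10.9 and 11.8; 5.58 ± 0.17) completed the 6. Both microglia libraries lay above both Olig2+ libraries at each, as the rule of choice required.

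At distal shared peaks the largest difference was in intron 2 of Arhgap22, a Rac regulator, with 557 and 495 tags in microglia against 2.07 and 4.09 (7.06 ± 0.24, SE, adjusted p = 1.1e-16). It was followed by a peak in intron 2 of Bin1 (nearest gene A830052D11Rik, chr18:32407408-32407617), with 1001 and 971 tags against 9.34 and 8.18 (6.66 ± 0.17). Bin1 encodes a membrane-bending adaptor. The next were an intergenic peak near Jund (369.9 and 343 against 2.07 and 7.16; 6.16 ± 0.30), and peaks in intron 1 of Ptprj (925 and 762 against 12.97 and 11.2; 6.01 ± 0.17), intron 1 of Soga1 (900.5 and 811 against 10.4 and 16.4; 5.93 ± 0.18) and intron 2 of Csnk1e (582 and 568 against 8.30 and 9.72; 5.85 ± 0.18). The Arhgap22 gene thus held both a leading shared peak and a leading microglia-only peak.

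In the other direction the largest start-site difference was at Dnm3, a dynamin of membrane fission, with 301 and 273 tags in Olig2+ nuclei and 5.19 and 3.39 in microglia (−5.79 ± 0.24, SE, adjusted p = 1.5e-15). In SgshKO microglia, which were also in the merge, the Dnm3 peak held 21.64 and 15.78 tags. Gnao1, a G-protein subunit abundant in brain, had 561 and 567 against 13.8 and 20.3 (−4.99 ± 0.18). Cadm2, an adhesion molecule, had 338 and 337 against 10.4 and 9.32 (−4.96 ± 0.19). Jph1 (348 and 355 against 16.4 and 12.7; −4.51 ± 0.19), Parm1 (201 and 207 against 8.64 and 8.47; −4.42 ± 0.21) and the retromer gene Vps26a (526 and 522 against 31.1 and 17.8; −4.42 ± 0.19) followed. All 6 of these start sites also had a NeuN+ peak, as did 91.5% of all shared start-site peaks.

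Of distal peaks higher in Olig2+ nuclei the largest difference was in intron 2 of Usp30, a mitochondrial deubiquitinase, with 142 and 157 tags against 1.73 and 0.85. Microglia had 3 reads there in all, and the ratio of pooled reads was 116 (exact 95% interval 39.6 to 566, counting error only). That peak entered the microglia table with SgshKO libraries in the merge, where it held 25.97 and 14.85 tags. The peak near Serpina4-ps1, given next, held 14.72 and 10.21 in SgshKO microglia. Others were an intergenic peak near Serpina4-ps1 (119 and 147 against 5.19 and 1.69; −5.03 ± 0.32), intron 1 of Ralgds (416 and 407 against 11.2 and 14.4; −4.91 ± 0.18), intron 1 of Tfeb (−4.84 ± 0.18) and intron 2 of Zcchc24 (515 and 478 against 20.7 and 14.4; −4.76 ± 0.18). Both Olig2+ libraries lay above both microglia libraries at each, as the rule of choice required.

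**Figure D3:**
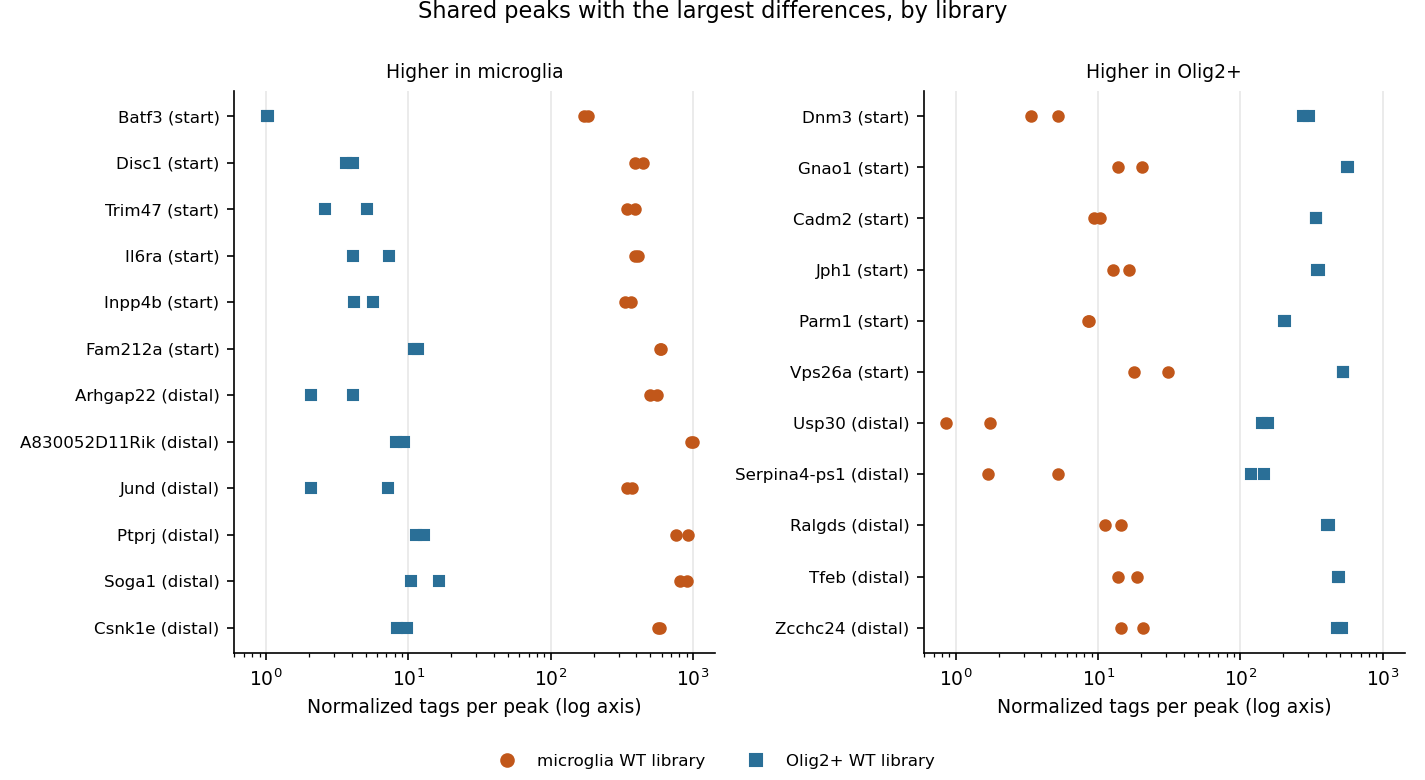
Normalized tags per peak on a log axis for the shared peaks named above, by direction of the difference; each point is 1 library (circles microglia, squares Olig2+; 2 each). The libraries of the sorts do not overlap at any peak plotted, as the rule of choice required.

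In SgshKO libraries, which the WT contrast did not use, the same fit called 13436 of the shared peaks (59.2%), 10003 of them higher in microglia and 3433 in Olig2+ nuclei. By the median of ratios these counts were 6620 and 6525. The count for Olig2+ nuclei was 2138 without Olig2+ SgshKO replicate 1 and 2054 without replicate 2. Of the 16132 WT calls 11158 (69.2%) were made in the same direction there, 403 in the opposite one, and 90.7% had the same sign. Of 3820 WT calls of at least 4-fold, 3686 were made again. An interaction of sort with genotype was called at 3454 shared peaks (15.2%). The SgshKO libraries differ from the WT ones in genotype, so this compares sorts in another genotype and is no repeat.

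Gene lists were read at the shared peak nearest each start site. Over 9539 genes with such a peak 39.2% were called higher in microglia and 33.4% in Olig2+ nuclei. The lists were chosen with earlier results of these data known, and their counts are descriptions.

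Microglial identity genes mostly lacked an Olig2+ peak. Of 25 microglia markers 20 had a start-site peak in microglia only, led by C1qb, C1qc (493 and 452 tags) and Tmem119 (439.9 and 412), a microglial surface protein. Tyrobp, the adaptor of TREM2, had 253 and 236. P2ry12, the purinergic receptor of resting microglia, had only 38.03 and 15.3 at its start site and Csf1r, the receptor for the survival factor CSF1, 18.2 and 11.0. The 25 genes had 398 microglia-only peaks and 18 Olig2+-only peaks. Olfml3 had 38.9 and 26.3 against 15.6 and 27.1, which overlap (adjusted p = 0.064), and its sign turned under in-peak and quantile scaling. It was called higher in microglia without microglia WT replicate 2 (0.89, adjusted p = 0.006) and without Olig2+ WT replicate 2 (0.99, adjusted p = 0.015).

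Of 25 phagocyte receptor and signalling genes 23 had a start-site peak in microglia only, such as Lyn, Plcg2 (244 and 215) and Cd300lf (384 and 316). The 23 include the gate gene Itgam, and Trem2, Tyrobp and Inpp5d, which are also counted among the microglia markers above. Mertk, a receptor for dying cells, was the shared one, with 279 and 219 tags against 27.0 and 18.4 (3.41 ± 0.20, adjusted p = 5.4e-13). Of 20 innate sensing genes 14 had microglia-only start-site peaks, among them Tlr4 (277 and 249), Nlrp3 (178 and 149) and Tlr2 (145 and 134). Ticam1, an adaptor of TLR3 and TLR4, had 337 and 285 against 222 and 213 (0.51 ± 0.14, adjusted p = 0.0023). Nod1, a sensor of bacterial peptidoglycan, had 144 and 138 against 113 and 103 (0.39 ± 0.16, adjusted p = 0.031). Neither Ticam1 nor Nod1 kept its sign under in-peak scaling. The median of ratios gave 0.027 at Ticam1 (adjusted p = 0.80) and −0.095 at Nod1 (adjusted p = 0.51). Without Olig2+ WT replicate 1 or 2 the adjusted p was 0.063 and 0.0998 at Ticam1 and 0.12 and 0.29 at Nod1.

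Of 18 myeloid transcription factors 8 had a start-site peak in microglia only, including Irf8 (108 and 133 tags), Runx1 and Fli1. At 9 with a shared peak, 6 were higher in microglia and 1 in Olig2+ nuclei, with a median of 2.37 against 0.22 over all shared start-site peaks. Cebpb had 187 and 156 against 10.4 and 9.20 (3.99 ± 0.22, adjusted p = 2.0e-13). Smad3, the transducer of TGF-beta signals, had 652 and 573 against 66.9 and 62.4 (3.22 ± 0.14). Cebpa had 461 and 329 against 43.0 and 38.9 (3.22 ± 0.17). The ETS gene Elf1 went the other way, with 34.6 and 22.03 against 106 and 102 (−1.88 ± 0.22, adjusted p = 6.1e-08). The microglia peak nearest the Elf1 start, which had no such partner, held 70.9 and 57.6 tags. Mef2a (56.2 and 60.2 against 61.7 and 63.9) and Bhlhe41 (161 and 139 against 139.5 and 136) were not called with the deposited scaling. Under in-peak scaling both were called higher in Olig2+ nuclei, Mef2a at −0.81 (adjusted p = 0.00028) and Bhlhe41 at −0.59 (adjusted p = 0.00011), as they were by the median of ratios and TMM. Quantile normalization also called Mef2a.

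Myelin genes leaned the other way, though a smaller share of them had a start-site peak in 1 sort only. Of 30 genes of myelin and mature oligodendrocytes 13 had a start-site peak in Olig2+ nuclei only, and 0 in microglia only. Examples were Mag (248 and 253 tags), Ugt8a (226 and 196), Hapln2 (201 and 229) and Mobp (188 and 177). In 9 genes a start-site peak was shared, 7 had start-site peaks in both tables that were not paired, and 1 had none. The 30 genes had 783 Olig2+-only and 60 microglia-only peaks. At 9 shared peaks 7 were higher in Olig2+ nuclei and 1 in microglia, with a median of −1.80. Cldn11, the tight-junction protein of myelin, had 196 and 172 against 17.3 and 13.6 in microglia (−3.50 ± 0.20, adjusted p = 5.4e-13). Mal had 167 and 179 against 25.9 and 17.8 (−2.95 ± 0.20), and Tspan2 100.1 and 132 against 14.7 and 20.3 (−2.66 ± 0.23).

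The exception was Mbp, which has a distant upstream promoter shared with the Golli transcripts. Its upstream start-site peak (chr18:82474969-82475176) had 36.3 and 33.9 tags in microglia and 11.4 and 9.72 in Olig2+ nuclei (1.65 ± 0.28, adjusted p = 1.5e-05). Its downstream promoter was in the Olig2+ table only, with the 532 and 543 tags given above. Pllp was not called with the deposited scaling (25.1 and 24.6 against 33.7 and 31.2; −0.37 ± 0.25, adjusted p = 0.18). It was called higher in Olig2+ nuclei under in-peak scaling (−1.06, adjusted p = 0.00035), and also by shared-peak scaling, the median of ratios, quantile normalization and TMM.

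Lineage factors of oligodendrocytes were less uniform. Start-site peaks of 7 of 19 were in Olig2+ nuclei only, among them Sox10 (236 and 232 tags), Nkx6-2 (154 and 159) and St18 (119 and 100.2). At 9 shared peaks 4 were higher in Olig2+ nuclei and 1 in microglia. Olig1 had 309.6 and 298 against 44.1 and 37.3 (−2.87 ± 0.16, adjusted p = 3.0e-13), Sox2 78.3 and 57.8 against 10.4 and 11.9 (−2.50 ± 0.26) and Id4 267 and 282 against 65.7 and 73.7 (−1.96 ± 0.15). Myrf, the master factor of myelin genes, had 191 and 192 in Olig2+ nuclei and 210 and 209 in microglia at its start (0.13 ± 0.14, adjusted p = 0.42), and Zeb2 35.8 and 36.8 against 38.9 and 32.2 (adjusted p = 0.90). Hes5 was higher in microglia, with 43.2 and 32.2 against 17.6 and 15.8 (1.11 ± 0.27, adjusted p = 0.00071), a call lost under in-peak and quantile scaling and with DESeq2. Myrf and Zeb2 were called higher in Olig2+ nuclei under in-peak scaling (−0.58, adjusted p = 3.2e-05, and −0.73, adjusted p = 0.0042), by the median of ratios and with TMM. Zeb2 was also called so by quantile normalization, and its sign turned without microglia WT replicate 2 (0.097, adjusted p = 0.74).

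Oligodendrocyte precursor genes had summed start-site tags of 842 and 833 in Olig2+ nuclei and 585 and 569 in microglia. Each sum covers only peaks of the sort's own table. These genes had 171 Olig2+-only and 29 microglia-only peaks. Of 16 genes 8 had a start-site peak in Olig2+ nuclei only, the highest being Gpr17 with 63.8 and 54.7 tags. At 3 shared start sites 1 was higher in Olig2+ nuclei, Olig1 as given above, and 2 in microglia. Pdgfra, the growth factor receptor that marks precursors, had 21.8 and 21.99 tags in Olig2+ nuclei and 74.3 and 46.6 in microglia (1.39 ± 0.25, adjusted p = 2.9e-05). C1ql1, which encodes a C1q-like secreted protein, had 31.6 and 45.5 against 155 and 162 (2.03 ± 0.19, adjusted p = 1.8e-09). In sorted bulk nuclei, fewer cells of a type and less accessibility per cell cannot be told apart.

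**Figure D4:**
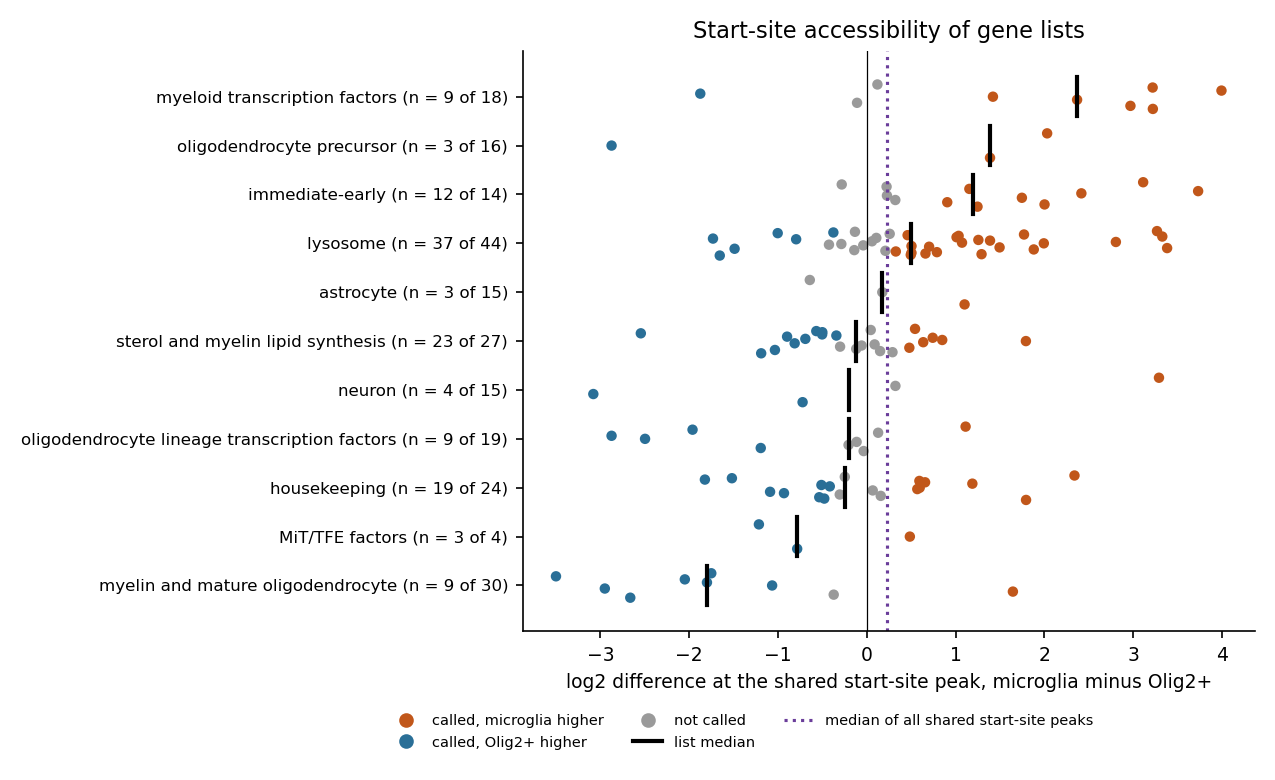
Log2 difference (microglia minus Olig2+) at the shared start-site peak nearest each gene, by list; points are genes (orange called higher in microglia, blue in Olig2+ nuclei, grey not called), black bars list medians, and the dotted line the median of all shared start-site peaks (0.22). Myeloid factors lie mostly to the right and myelin genes mostly to the left, with Elf1 and Mbp on the other side.

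The study's title concerns lysosomal dysfunction, and lysosomal genes were open in both sorts. Of 44 genes 37 had a shared start-site peak. Of these 22 were called higher in microglia and 6 in Olig2+ nuclei, with a median of 0.50. Under all 6 scalings 12 and 6 kept their calls, as did 2964 of 5318 and 3706 of 3708 over all shared start-site peaks. The glycosidase gene Manba had 297 and 244 tags against 20.2 and 30.7 (3.38 ± 0.20, adjusted p = 4.7e-13). The cathepsin gene Ctsz had 167 and 161 against 16.6 and 14.3 (3.33 ± 0.20), and the sulfatase gene Arsb 124 and 121 against 12.97 and 10.7 (3.27 ± 0.22).

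Not all lysosomal genes followed. Galns, which encodes a sulfatase of keratan sulfate, had 430.5 and 441 tags in Olig2+ nuclei and 130.5 and 130.46 in microglia (−1.73 ± 0.14, adjusted p = 8.7e-11). Tpp1, a lysosomal peptidase, had 90.8 and 72.1 against 32.0 and 19.5 (−1.66 ± 0.24), and the lysosomal calcium channel gene Mcoln1 138 and 137 against 45.8 and 50.8 (−1.49 ± 0.17). Sgsh itself had 184 and 162 in microglia and 65.9 and 74.2 in Olig2+ nuclei (1.29 ± 0.16). It is named here because it is the gene deleted in the SgshKO mice of the series.

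MITF, TFEB, TFE3 and TFEC form the MiT/TFE family, which switches on lysosomal genes. At Mitf and Tfeb some of the strongest peaks lay at different places in the sorts, whereas the only Olig2+ peak of Tfe3 was shared. At the shared start sites Mitf had 204 and 224 tags in Olig2+ nuclei and 96.8 and 86.4 in microglia (−1.22 ± 0.15, adjusted p = 2.2e-07). Tfeb had 200.2 and 206 against 142 and 97.4 (−0.78 ± 0.17, adjusted p = 0.00022). Tfe3 had 149 and 141 against 218 and 189 (0.48 ± 0.15, adjusted p = 0.0055), with the sign turned under in-peak scaling. At Tfe3 the median of ratios gave 0.0023 (adjusted p = 0.99), and without Olig2+ WT replicate 1 or 2 the adjusted p was 0.065 and 0.12. The libraries of the sorts did not overlap at any of the 3, as at 85.9% of all shared start-site peaks. No start-site peak of Tfec was in either table, and its 4 peaks, between genes, were in the microglia table only.

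A further start-site peak of Tfeb (chr17:47737712-47737950) had 342 and 328 tags in microglia and 237 and 244 in Olig2+ nuclei (0.48 ± 0.13, adjusted p = 0.0028), a call not kept under all scalings. At Mitf a promoter peak farther downstream (chr6:97929347-97929654) was in microglia only, with 87.3 and 103 tags. Microglia also had Mitf peaks in intron sequence at chr6:97866668-97866899 (247 and 228) and chr6:97820732-97820934 (233 and 209) with no Olig2+ counterpart. Olig2+ nuclei had one beyond the gene at chr6:98049256-98049470 (215 and 240.3) with no microglia counterpart. Of Mitf peaks 14 were in microglia only, 18 in Olig2+ nuclei only and 3 shared. Over all peaks 70.2% of the microglia table and 67.2% of the Olig2+ table overlapped none of the other, and 81.3% and 79.7% of distal peaks. Nothing particular to Mitf is therefore read from these counts.

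Within intron 1 of Tfeb, peaks a few kilobases apart pointed in opposite directions. At chr17:47763053-47763350 Olig2+ nuclei had 496 and 481 tags and microglia 13.8 and 18.6 (−4.84 ± 0.18, adjusted p = 3.4e-16). At chr17:47768695-47768935 microglia had 449 and 368 and Olig2+ nuclei 23.3 and 31.2 (3.86 ± 0.18). Further shared peaks higher in microglia lay at chr17:47757111-47757369 (131 and 90.7 against 8.30 and 13.3; 3.25 ± 0.26) and chr17:47784498-47784722 (152 and 155 against 16.6 and 17.9; 3.08 ± 0.20). Tfeb had 51 Olig2+-only peaks with a median of 11.3 tags, 4 microglia-only peaks and 15 shared ones. A further 8 microglia and 10 Olig2+ peaks overlapped in another way. The shares over all peaks are those given above for Mitf. Apart from the start-site peaks and the intron peak higher in Olig2+ nuclei, the Tfeb and Mitf peaks named here were chosen after their values were seen.

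**Figure D5:**
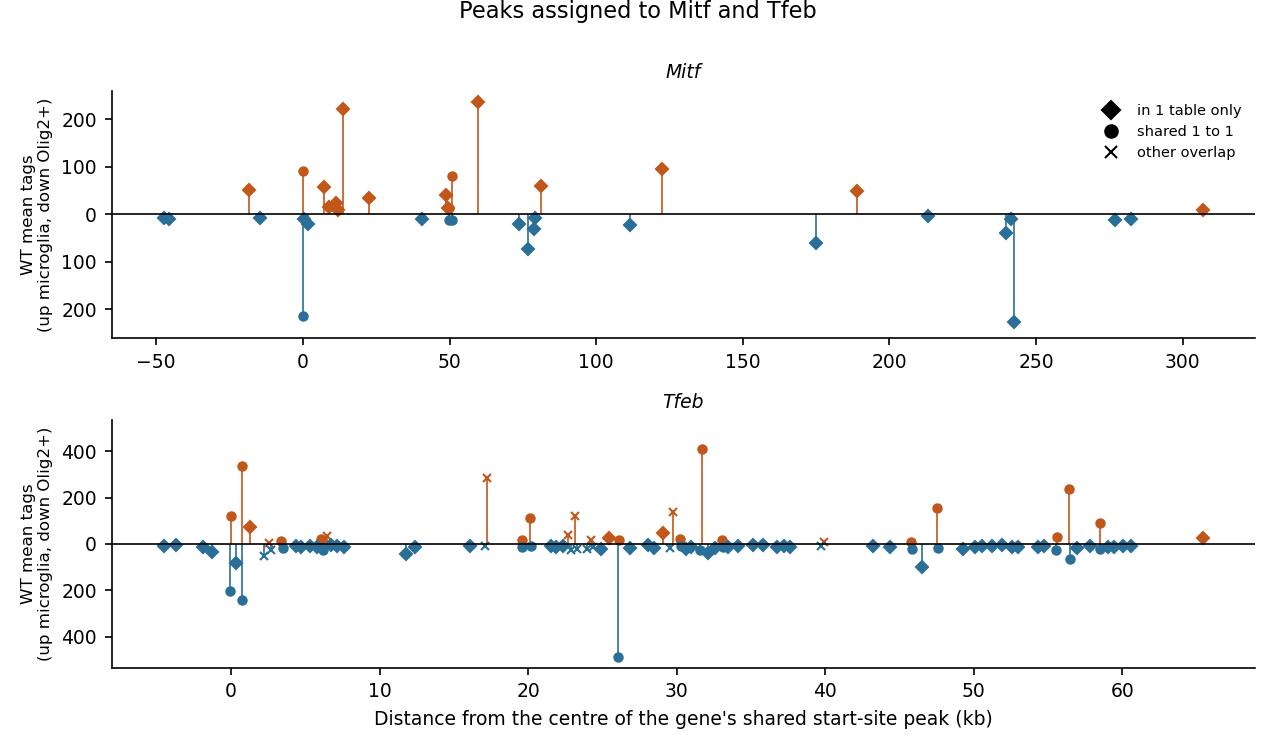
WT mean tags of every peak assigned to Mitf (top) and Tfeb (bottom) by distance in kb from the centre of the shared start-site peak, microglia upward and Olig2+ downward; diamonds are peaks of 1 table, circles shared peaks and crosses other overlaps. The tall Olig2+ and microglia peaks of Tfeb intron 1 stand at different positions.

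Sterol and myelin lipid genes mostly had start-site peaks in both sorts, with differences in either direction. Of 27 genes 23 had a shared start-site peak, 10 of them higher in Olig2+ nuclei and 6 in microglia, with a median of −0.12. All 10 kept their call under all 6 scalings and 1 of the 6 did. Over all shared start-site peaks 3706 of 3708 Olig2+ calls and 2964 of 5318 microglia calls were kept. Elovl7, a fatty acid elongase, had 305 and 251 tags in Olig2+ nuclei against 44.9 and 48.3 (−2.55 ± 0.16, adjusted p = 2.7e-12). Srebf2, the factor that drives sterol synthesis, had 418 and 431 against 197 and 175 (−1.19 ± 0.13), and the desaturase gene Scd2 412 and 414 against 235 and 172 (−1.03 ± 0.15). Idi1, an enzyme of isoprenoid synthesis, was higher in microglia (282 and 224 against 63.8 and 80.8; 1.79 ± 0.17, adjusted p = 1.6e-09). So was Hsd17b7 (512 and 478 against 277 and 271; 0.85 ± 0.13), a call that in-peak scaling did not keep.

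Immediate-early genes, which respond within minutes to stimulation and to tissue dissociation, were in part more open in microglia. Of 14 genes 12 had a shared start-site peak, 8 called higher in microglia and 0 in Olig2+ nuclei by limma with the deposited scaling. Of the other 4, Btg2 was called higher in Olig2+ nuclei under in-peak and shared-peak scaling, by the median of ratios, per 200 bp of width, with edgeR (TMM) and DESeq2, and without microglia WT replicate 1 (−0.38, adjusted p = 7.4e-05). The median log2 difference was 1.20. Under all 6 scalings 7 of the 8 kept the call, against 2964 of 5318 microglia calls over all shared start-site peaks. Egr3 had 304 and 277 tags against 25.9 and 16.9 (3.73 ± 0.20, adjusted p = 8.2e-14), Atf3 539 and 472 against 65.9 and 50.1 (3.11 ± 0.16) and Fos 188 and 205 against 39.4 and 32.7 (2.42 ± 0.18). Btg2 (268 and 235 against 296 and 314; adjusted p = 0.068), Dusp1 (137 and 153 against 133 and 116) and Fosb (87.3 and 82.2 against 77.3 and 67.5) were not called, and in-peak scaling called Dusp1 (−0.48, adjusted p = 0.0029) and Fosb (−0.48, adjusted p = 0.0093) higher in Olig2+ nuclei. Dusp1 was called higher in microglia without microglia WT replicate 1 (0.31, adjusted p = 0.026). Only the microglia were sorted alive and unfixed, so the sort and its handling cannot be told apart here.

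Housekeeping genes gave a measure of the background. Of 24 genes 19 had a shared start-site peak, 7 higher in microglia and 8 in Olig2+ nuclei, with a median of −0.25. The extremes were Actb (340 and 396 tags against 83.0 and 61.9; 2.34 ± 0.16, adjusted p = 9.3e-12), Ywhaz (125 and 115 against 32.7 and 35.3; 1.79 ± 0.19) and Gpi1 (175 and 165 against 69.0 and 79.3; 1.19 ± 0.16) on the microglia side. On the Olig2+ side they were Eef2 (95.4 and 80.8 against 28.5 and 20.3; −1.82 ± 0.22, adjusted p = 1.3e-07), Eef1a1 (536 and 531 against 196 and 175; −1.52 ± 0.13) and Reep5 (95.4 and 96.1 against 45.8 and 43.2; −1.09 ± 0.18). The differences at Mitf, Tfeb and Tfe3 start sites, and at all sterol genes named here except Elovl7, lay within this range. So did those at the lysosomal genes Galns, Tpp1, Mcoln1 and Sgsh, and at Ticam1 and Nod1. Hes5, Pdgfra, C1ql1 and the upstream start-site peak of Mbp lay within it too.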

How the data were processed

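ATAC-seq libraries of sorted mouse forebrain cells and nuclei (Tn5 insertion, fragments of 155 to 250 bp selected on gels, single-end reads) were deposited as 1 peak table per sort. Bowtie2, HOMER and mm10 are named in the submitters' processing notes, without versions. Per the file headers, each library's column holds the signal of a peak as tags normalized by the authors to 10000000 per library, from which whole reads were recovered for 100% of values (tolerance 0.01). The deposited Peak Score was used only as a filter in an alternative. Peaks within 1000 bp of an annotated start site were called start-site peaks and all others distal.

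Shared peaks were tested with limma 3.58.1 (R 4.3.3) on log2(tags + 1), with an intensity trend, 2 WT libraries against 2, two-sided, and Benjamini-Hochberg adjustment over all 22710 shared peaks, at an adjusted p of 0.05. SgshKO libraries had a fit of their own. Values after ± are standard errors of the fit. Alternatives were 5 other scalings, edgeR 4.0.16 and DESeq2 1.42.0 on the recovered reads, other pseudocounts, filters and overlaps, and leaving out each library. Calls in 1 direction under all scalings were counted as an alternative chosen after seeing the data. In simulated data for this contrast only 200 of 22710 peaks were changed. There 73% of 2-fold and 99% of 4-fold changes were recovered, and 14 of 22510 unchanged peaks were called. How these values depend on the scaling, or on a larger share of changed peaks, was not tested. Named peaks were, in each direction, the 6 called start-site and 6 called distal shared peaks with the largest difference whose libraries did not overlap and whose mean in the higher sort reached that sort's median, 1 per gene, then the largest by list, and the strongest peaks of 1 table. Members and lists were chosen with earlier results of these data known. Intervals on read ratios are exact and, like depth, cover counting error only. The labels do not say which sequencer ran which library. Some results are not reported here.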

Additional observations from a re-analysis of the deposited data

Results flagged for a closer look

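At 7 of the 24 shared peaks with the largest WT differences, the difference between the sorts was not the same in SgshKO mice, by limma's interaction of sort with genotype (adjusted over 22710 shared peaks, 2 libraries per group). Over all shared peaks the interaction was called at 15.2%, and the 24 were chosen by WT values that the interaction also uses, so nothing is read from their count. The interaction, SgshKO minus WT, was −2.05 at Batf3 (adjusted p = 0.0015), where the log2 difference was 6.46 in WT and 4.41 in SgshKO. It was 2.07 at Dnm3 (adjusted p = 0.0005; −5.79 and −3.71) and 0.83 at Jph1 (adjusted p = 0.043; −4.51 and −3.68). It was 2.27 at Vps26a (adjusted p = 0.00069; −4.42 and −2.15) and 3.57 at the intron peak of Usp30 (adjusted p = 4.3e-05; −6.06 and −2.50). It was 1.69 near Serpina4-ps1 (adjusted p = 0.025; −5.03 and −3.34) and 1.29 at Ralgds (adjusted p = 0.0044; −4.91 and −3.62). All 7 differences were smaller in SgshKO, in peaks that had been chosen for their large WT differences. At Vps26a the SgshKO microglia libraries held 78.8 and 170 tags, against 31.1 and 17.8 in WT.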

How the results depend on the processing

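Each sort had 2 libraries, prepared differently, and no batch was labelled. All 24 peaks named for the largest differences kept call and direction in all 22 settings, and of 67 called named peaks 60 did. Called peaks numbered 16132, and 7310 with 80% overlap (5127 higher in microglia, 2183 in Olig2+ nuclei) or 10664 at 2-fold or more (2888 in Olig2+ nuclei). Higher in microglia were 6652 with in-peak scaling and 6259 with DESeq2. Higher in Olig2+ nuclei were 9519 in-peak, 8104 by median of ratios, 8229 by quantile normalization and 8124 with TMM. Leaving out each library gave 13585 to 16457 calls, 9368 to 11470 in microglia and 4188 to 5890 in Olig2+ nuclei. In SgshKO the median of ratios gave 6620 and 6525, and leaving out libraries gave 9724 to 15936 calls, 7586 to 11898 in microglia and 2054 to 4609 in Olig2+ nuclei. A sort left with 1 library was assumed to vary like the other. The replicate block gave 16222 calls in WT and 13541 in SgshKO. Same-numbered libraries did not deviate together (correlation 0.0039 and −0.0029). Noise of separate preparations could hide a shared animal, so this cannot tell whether the numbers pair them. Peaks of 1 table fell to 39219 and 26926 at a Peak Score of 1000, and to 27446 and 22004 above the median.

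Signs turned at 9 named peaks. In-peak scaling gave −0.0725 at Olfml3, −0.59 at Bhlhe41, −0.32 at Nod1, −0.20 at Ticam1, −0.22 at Tfe3, −0.58 at Myrf, −0.48 at Dusp1 and −0.48 at Fosb. Quantile normalization gave −0.16 at Olfml3, −0.0041 at Bhlhe41 and −0.21 at Fosb. Shared-peak scaling gave −0.11 at Bhlhe41, −0.10 at Myrf and −0.0032 at Dusp1. Median of ratios, TMM and DESeq2 gave −0.36, −0.35 and −0.36 at Bhlhe41, −0.10, −0.080 and −0.10 at Nod1, −0.36, −0.34 and −0.36 at Myrf, −0.26, −0.24 and −0.26 at Dusp1, and −0.25, −0.24 and −0.26 at Fosb. Tags per 200 bp gave −0.031 at Nod1, and Zeb2 was −0.17 without microglia WT replicate 1 and 0.10 without replicate 2. The cause was not tested.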
